A study of Homo sapiens with 9 samples.

Results

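Cholesterol and fatty acid metabolism was followed through 36 listed genes, from the endothelial lipase LIPG and other lipases to the enzymes of sterol and fatty acid synthesis and their regulators. Members were found by gene symbol in the platform annotation: 34 of the 36 had a probe, 56 of the 47323 probes on the array belonged to them, and 33 could be tested among 12437 genes. Expression of FDFT1 and ACSL3 was not analysed here. The lipoprotein lipase gene LPL had a single probe, above background on 1 of 9 arrays, and was not tested.

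MDA-MB231 is a human breast cancer line of basal, mesenchymal character, and its RNA was hybridised to single-colour Illumina bead arrays. There were 3 arrays in each of 3 groups: cells with the empty vector, cells that overexpressed RAI2 and cells that overexpressed a form called RAI2-4A, whose change the labels do not describe. All 3 groups, vector included, were made with retrovirus from packaging cells and selected with 2 µg/ml puromycin, maintained for 4 days. The labels say neither whether replicates were separate cultures nor whether cells were cloned, so the p-values speak of array-to-array spread alone, which may be technical, and 3 arrays a group limit the precision of each value. In such bulk RNA, fewer cells of a type and less RNA per cell cannot be told apart.

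Cells take lipid from outside through lipases that split phospholipids and triglycerides, and make their own from acetyl-CoA. When sterols in the endoplasmic reticulum run low, SREBP transcription factors leave INSIG proteins, are cleaved and enter the nucleus, where they switch on the genes of cholesterol and fatty acid synthesis. When sterols are plentiful, INSIG proteins hold the SREBPs back, while oxysterols activate LXR receptors and through them the cholesterol exporter ABCA1. Many tumour cells keep both synthesis and uptake active.

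The stretch before the start site is shown for LIPG, the member past the test, for the sterol desaturase gene SC5D, which differed most between the RAI2 forms among synthesis genes, and for INSIG1, the feedback gene of the SREBP pathway. Each is the 250 bases before the start in RefSeq (GRCh38.p14), read 5′ to 3′ on the gene's strand: LIPG at chr18:49561807-49562056 on the plus strand, SC5D at chr11:121292521-121292770 on the plus strand and INSIG1 at chr7:155297628-155297877 on the plus strand. Capitals mark matches, on either strand, to CCAAT (the letters of the NF-Y box), CACGTG (an E-box) or TCACNCCAC (a form of the sterol regulatory element). No matches overlapped in the printed sequences.
LIPG: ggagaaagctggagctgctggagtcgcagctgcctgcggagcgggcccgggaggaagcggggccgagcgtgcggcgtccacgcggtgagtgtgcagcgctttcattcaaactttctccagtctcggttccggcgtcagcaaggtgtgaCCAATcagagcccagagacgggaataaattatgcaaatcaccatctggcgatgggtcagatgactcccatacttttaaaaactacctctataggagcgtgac
SC5D: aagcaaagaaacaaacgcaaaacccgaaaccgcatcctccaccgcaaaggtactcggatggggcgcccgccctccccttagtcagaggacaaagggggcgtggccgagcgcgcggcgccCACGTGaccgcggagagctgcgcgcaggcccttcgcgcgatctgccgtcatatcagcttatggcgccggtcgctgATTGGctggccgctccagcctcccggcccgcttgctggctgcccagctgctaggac
INSIG1: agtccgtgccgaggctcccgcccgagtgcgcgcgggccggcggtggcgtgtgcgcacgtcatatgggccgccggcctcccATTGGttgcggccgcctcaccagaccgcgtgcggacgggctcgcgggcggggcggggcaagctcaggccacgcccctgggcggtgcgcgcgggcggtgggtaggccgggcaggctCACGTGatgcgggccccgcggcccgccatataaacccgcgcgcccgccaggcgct
LIPG held 1 match to CCAAT and none to the other motifs. SC5D and INSIG1 each held 1 match to CCAAT and 1 to CACGTG. Of the 30 members with a promoter in the table, 17 (56.7%) held CCAAT, 3 (10%) CACGTG and 2 (6.67%, PNPLA2 and SREBF2) TCACNCCAC. Over all 35116 promoters in the table, coding or not, the shares were 32%, 6.34% and 0.883%. A match is a string of letters and not a measured binding site.

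RAI2 itself followed the labels. It read 88.3, 86.3 and 95.8 in vector, above background on none of these arrays, against 632, 603 and 559 in RAI2 and 1063, 955 and 1158 in RAI2-4A cells (deposited linear intensity). All RAI2-4A arrays thus read higher than all RAI2 arrays. Every comparison between the forms also compares levels of this transcript, whose part was not tested. An array's background threshold lay between 99.8 and 104. Of the markers of this line, VIM, CD44, AXL and CAV1 were above background on all 9 arrays, while ESR1, PGR and FOXA1 were above it on none. CDH1 (8 arrays), GATA3 (8 arrays) and ERBB3 (9 arrays), also listed as low in this line, lay close to it, with GATA3 at 119.9 ± 16.3 (SD, n = 3) in vector, 109.6 ± 0.411 (SD, n = 3) in RAI2 and 136 ± 4.09 (SD, n = 3) in RAI2-4A. Replicate 1 of vector and replicate 2 of both RAI2 forms stood apart: their deviations from their own group means correlated at 0.44 to 0.54 across genes, on an axis that held 53.4% of the residual variance. The LIPG results are also given without these 3 arrays. Counts of calls and other refitted differences are given that way where they moved by over 1.5 times.

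LIPG encodes a secreted lipase, bound to heparan sulphate at the cell surface, that mainly cleaves phospholipids of high-density lipoproteins. Its brighter probe (ILMN_2189027) read 121, 118 and 119.8 in vector, 242, 245 and 225 in RAI2 and 229, 138 and 193 in RAI2-4A cells. Every array of both RAI2 forms lay above every vector array, and RAI2-4A replicate 2 lay closest to vector. The group means were 119.7 ± 1.47 (SD, n = 3) for vector, 238 ± 10.7 (SD, n = 3) for RAI2 and 187 ± 46 (SD, n = 3) for RAI2-4A, so the RAI2-4A arrays differed far more among themselves.

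**Figure D1:**
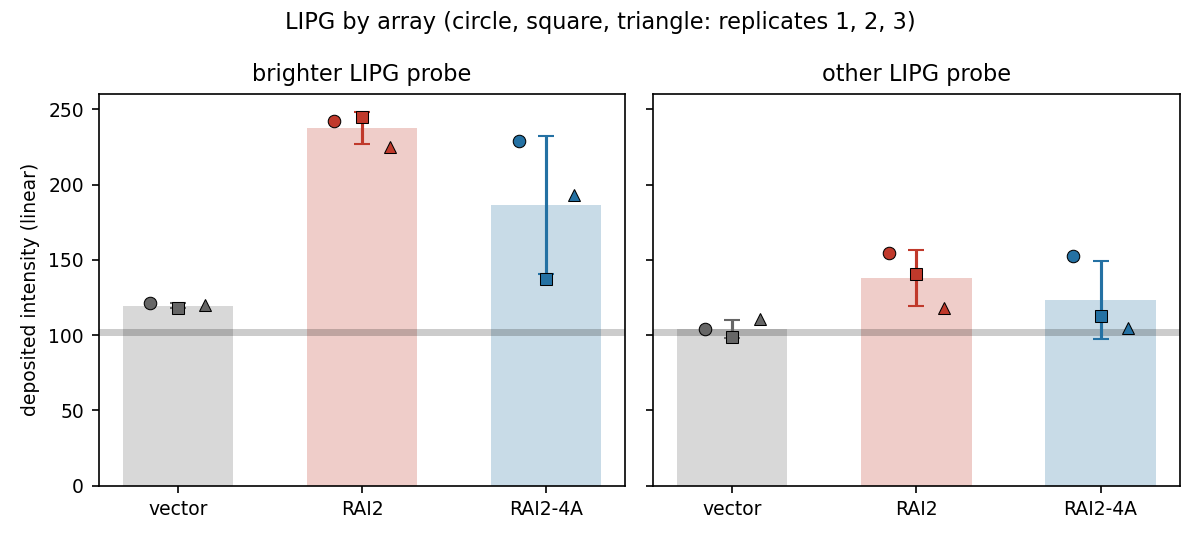
Deposited linear intensity of both LIPG probes on each array, with bars for group means, whiskers for 1 SD and a grey band for the range of the arrays' background thresholds. On the brighter probe all RAI2 and RAI2-4A arrays exceed the vector arrays, while on the other probe RAI2-4A replicate 3 falls within the vector range.

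In RAI2 cells LIPG rose 2.21-fold over vector, a log2 difference of 1.15 (SE 0.17, 95% interval 0.79 to 1.51, limma, adjusted p = 0.00734). It was the only one of the 33 tested members past the threshold of 0.05, and none fell, where 0.418% of all tested genes passed, 0.322% higher and 0.0965% lower. Members were listed with earlier results of these data known, so these shares are not a test of the list. The call held without the 3 arrays that stood apart (1.13, limma, adjusted p = 0.000679). Those arrays were picked by their residuals in these same data, so that refit is not an independent check. The call was narrowly lost without RAI2 replicate 1 (limma, adjusted p = 0.0504) or RAI2 replicate 2 (limma, adjusted p = 0.0515).

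In RAI2-4A cells LIPG differed from vector by 0.71 (SE 0.17, 95% interval 0.35 to 1.07, limma, adjusted p = 0.327), which did not pass. The result depended on single arrays. Without RAI2-4A replicate 2 the difference was 0.95 (limma, adjusted p = 0.0109), and without RAI2-4A replicate 1 it was 0.53 and did not pass. With the 3 odd arrays dropped, RAI2-4A replicate 2 among them, it was 0.96 (limma, adjusted p = 0.00632). Between the RAI2 forms LIPG differed by 0.43 (SE 0.17, 95% interval 0.07 to 0.79, limma, adjusted p = 0.828), and by 0.17 (limma, adjusted p = 0.904) without those 3 arrays. The forms were thus not shown to differ in LIPG, nor shown to act alike.

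A second LIPG probe (ILMN_1689037) was dimmer and differed less. It read 104, 98.6 and 110.5 in vector, 155, 140.5 and 118 in RAI2 and 153, 113 and 105 in RAI2-4A cells, with 1 vector array not above background. RAI2 arrays again lay above all vector arrays, while RAI2-4A replicate 3 lay below vector replicate 3. In a fit that kept probes separate, the difference was 0.48 (SE 0.18, limma, adjusted p = 0.863) for RAI2 and 0.27 (SE 0.18, limma, adjusted p = 0.992) for RAI2-4A. With the mean of both probes the RAI2 difference was 0.81 and the call was lost (limma, adjusted p = 0.0665). Vector lay near background on both probes, so the size of the change depends on the background model: it was 1.84 with the background set at each array's mode (limma, adjusted p = 0.0255) and 0.99 with no correction (limma, adjusted p = 0.00944).

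Endothelial cells are the tissue source after which LIPG is named. Of 7 endothelial markers, CDH5, VWF and TIE1 were above background on no array, and ESAM, a junction adhesion molecule, on all 9. PECAM1 was above it on 3 vector arrays, 0 RAI2 arrays and 1 RAI2-4A array, KDR on 3 of 9 arrays and TEK on 1. The summed intensity of the 7 markers ran from 1552 to 1813 in vector, 1422 to 1541 in RAI2 and 1287 to 1382 in RAI2-4A, highest in vector where LIPG was lowest. Its part in the LIPG result was not tested. ESAM made up most of it, at 1073 ± 114 (SD, n = 3), 927 ± 76.3 (SD, n = 3) and 788 ± 43.3 (SD, n = 3). Sums over 5 adipocyte markers (570.1 to 647, 623 to 628 and 598 to 695) and 4 markers of the kidney-derived packaging cells (360.3 to 385, 359.6 to 379 and 358 to 361) overlapped between the groups. Of the adipocyte markers only LEP was above background on all 9 arrays. NEFM, INA and LIN28B of the packaging cells were above it on no array and NEFL on 4. These sums therefore lay mostly at background, and their overlap says little about either cell type.

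None of the 3 other tested lipases passed in any comparison. Lysosomal acid lipase (LIPA), which frees cholesterol from esters taken up with lipoproteins, read 1936, 1879 and 2013 in vector, 1767, 1850.3 and 1732 in RAI2 and 2096, 1637 and 1753 in RAI2-4A cells. All RAI2 arrays lay below all vector arrays, by a log2 difference of -0.13 (SE 0.11, limma, adjusted p = 0.988), and RAI2-4A spanned both. The triglyceride lipase PNPLA2 differed by 0.04 in RAI2 and 0.08 in RAI2-4A (SE 0.12).

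Monoacylglycerol lipase (MGLL), the last step of triglyceride breakdown, read 279.9, 205 and 192 in vector, 174, 241 and 207 in RAI2 and 159.8, 205 and 208 in RAI2-4A cells. Vector replicate 1 was the highest array and the rest overlapped, and differences from vector were -0.13 in RAI2 and -0.26 in RAI2-4A (SE 0.18, limma, adjusted p = 0.994 for RAI2-4A). The RAI2-4A difference was -0.08 without vector replicate 1, -0.12 without RAI2-4A replicate 1 and -0.15 without the 3 arrays that stood apart. LPL read 91.1, 95.1 and 93.9 in vector, 105, 89.3 and 88.4 in RAI2 and 95.2, 85.3 and 101 in RAI2-4A cells, so no level was measured beyond RAI2 replicate 1.

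**Figure D2:**
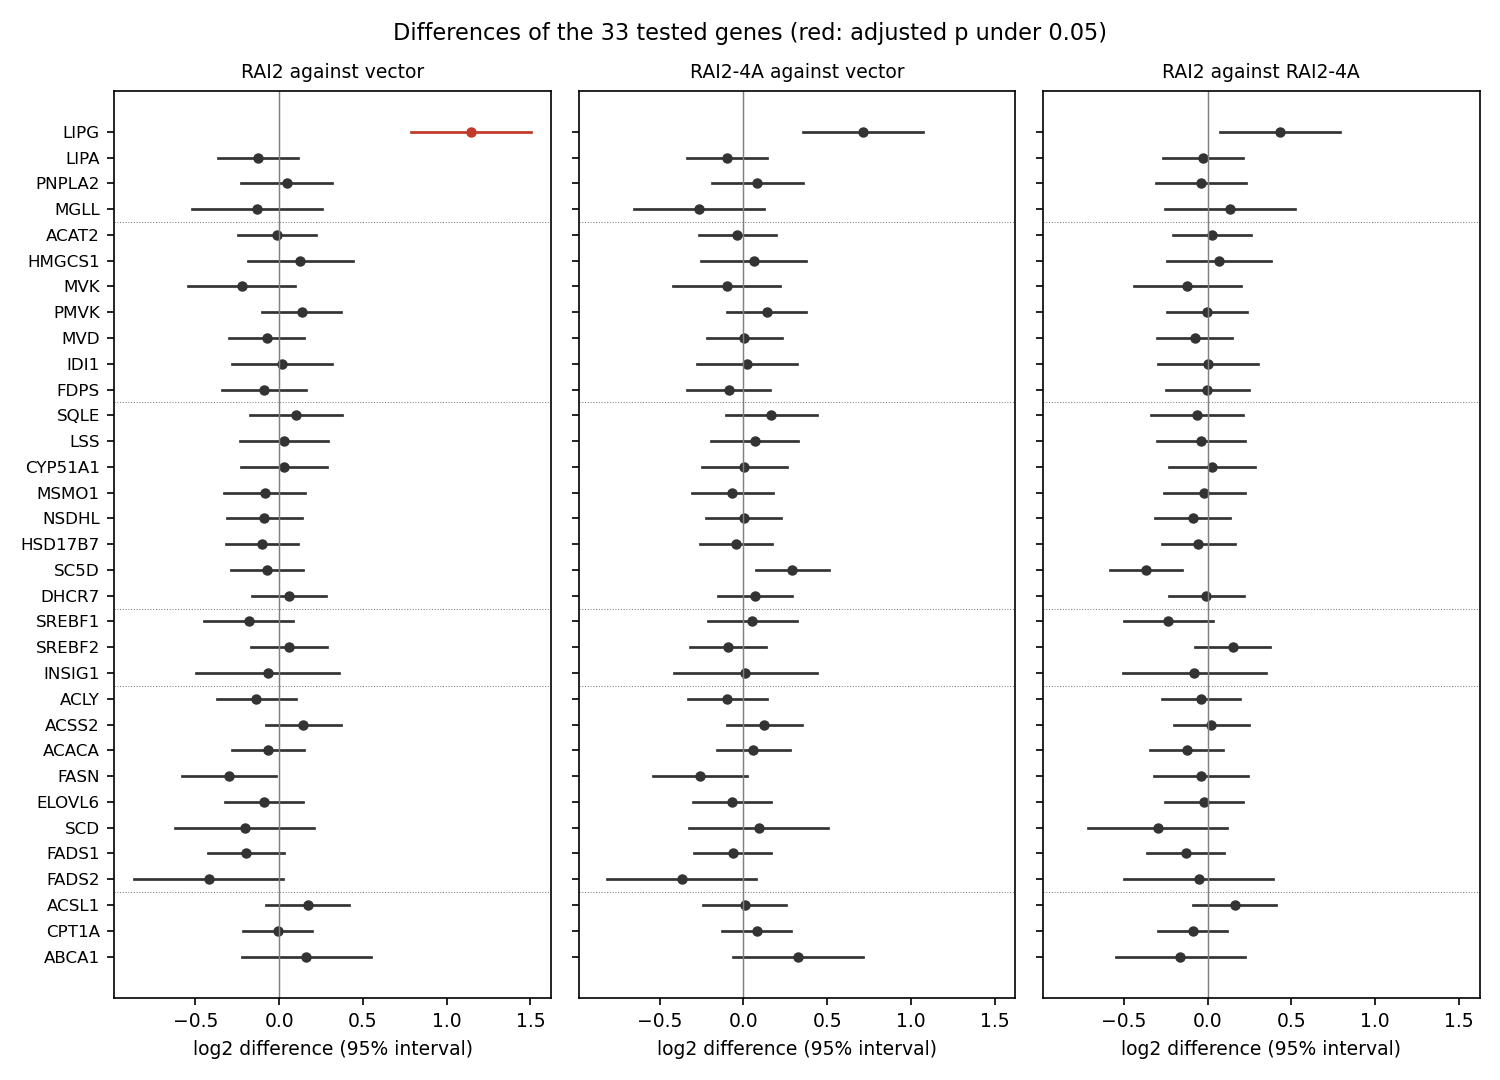
Log2 differences (points) with 95% intervals (lines) for the 33 tested genes in each comparison, grouped by role. LIPG in RAI2 against vector, at 1.15, is the single difference past an adjusted p of 0.05.

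None of the 15 tested enzymes of cholesterol synthesis passed the test in any comparison. Over all tested genes 0.418% passed in RAI2 against vector, 0.0884% in RAI2-4A against vector and 0.378% between the forms. At such shares the lack of a call among so few genes says little, here as for the other groups of members. From acetyl-CoA to farnesyl diphosphate, the thiolase ACAT2, the synthase HMGCS1, the kinases MVK and PMVK, the decarboxylase MVD, the isomerase IDI1 and the prenyl synthase FDPS had differences of -0.22 (MVK) to 0.14 (PMVK) in RAI2 and -0.10 (MVK) to 0.14 (PMVK) in RAI2-4A cells against vector. HMGCS1, a classical SREBP target, read 867, 756 and 957 in vector, 928, 919 and 953 in RAI2 and 1106, 733 and 877 in RAI2-4A. Groups overlapped fully, and RAI2-4A replicates 1 and 2 held both the highest and the lowest value. MVK, which phosphorylates mevalonate, read 210.5, 209 and 194 in vector, 145, 198 and 201 in RAI2 and 178, 219 and 183 in RAI2-4A, with RAI2 replicate 1 lowest. Its RAI2 difference had an SE of 0.15 (limma, adjusted p = 0.988) and was -0.04 without RAI2 replicate 1.

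From squalene to cholesterol, the epoxidase SQLE, the cyclase LSS, CYP51A1, MSMO1 and NSDHL of sterol demethylation, the reductases HSD17B7 and DHCR7 and the desaturase SC5D had differences of -0.10 (HSD17B7) to 0.10 (SQLE) in RAI2 cells. In RAI2-4A cells they ran from -0.07 (MSMO1) to 0.29 (SC5D). The 95% intervals of these 8 genes in RAI2 lay between -0.33 and 0.38, and those of the 7 earlier enzymes between -0.54 and 0.44, so a log2 difference of 1 lies outside the interval of each of the 15. In RAI2-4A the intervals lay between -0.31 and 0.51 for the 8 and between -0.42 and 0.38 for the 7.

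SQLE, the flavoenzyme that opens the sterol branch, read 689, 806 and 938 in vector, 817, 856 and 917 in RAI2 and 997, 839 and 876 in RAI2-4A cells. The groups overlapped, at a difference of 0.17 (SE 0.13, limma, adjusted p = 0.994) in RAI2-4A. That difference was 0.05 without vector replicate 1, 0.28 without vector replicate 3, 0.09 without RAI2-4A replicate 1 and 0.11 without the 3 arrays that stood apart. SC5D, which places a double bond in the sterol ring near the end of the pathway, read 731, 755 and 823 in vector, 711, 735 and 751 in RAI2 and 995, 890.3 and 928 in RAI2-4A. All RAI2-4A arrays lay above all others, whereas RAI2 and vector overlapped.

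SC5D did not pass over all genes. It differed by 0.29 (SE 0.10, unadjusted p = 0.0116 in limma, adjusted p = 0.994) between RAI2-4A and vector. Between RAI2 and RAI2-4A it differed by -0.37 (SE 0.10, 95% interval -0.58 to -0.15, unadjusted p = 0.00279 in limma, adjusted p = 0.292). Across 22 other settings the latter difference ran from -0.41 to -0.32, with adjusted p between 0.136 and 0.898 in limma.

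None of the SREBP regulators passed in any comparison. The transcript of SREBF1, the factor that mainly drives fatty acid genes, read 807, 719.8 and 779 in vector, 685, 687 and 667 in RAI2 and 953, 771 and 687 in RAI2-4A cells. All RAI2 arrays lay below all vector arrays, by -0.18 (SE 0.12, limma, adjusted p = 0.988), and RAI2-4A spread across both ranges, with a difference of -0.23 (SE 0.12, limma, adjusted p = 1) between the forms and of -0.10 without RAI2-4A replicate 1. On a dimmer SREBF1 probe (ILMN_2328986, above background on all 9 arrays) the groups overlapped. There the differences from vector were -0.17 in RAI2 and -0.21 in RAI2-4A, with 0.04 between the forms (SE 0.30). SREBF2, which mainly drives sterol genes, read 101, 106 and 104 in vector, 106, 102 and 114 in RAI2 and 94.8, 96.6 and 107 in RAI2-4A. Its single probe was above background on 6 of 9 arrays, so its level was barely measured. Its difference between the forms was 0.15 (SE 0.10, limma, adjusted p = 1), and 0.09 without RAI2 replicate 3. SREBP precursors are activated by cleavage, which transcript levels do not measure.

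INSIG1, itself an SREBP target, read 3207, 2226 and 3335 in vector, 2803, 2766 and 2667 in RAI2 and 4095, 2593 and 2299.8 in RAI2-4A cells. The RAI2 arrays lay within the vector range, and the RAI2-4A arrays held the highest value of all beside one near the lowest. Against vector the log2 differences were -0.07 (SE 0.20) in RAI2 and 0.01 (SE 0.20) in RAI2-4A.

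**Figure D3:**
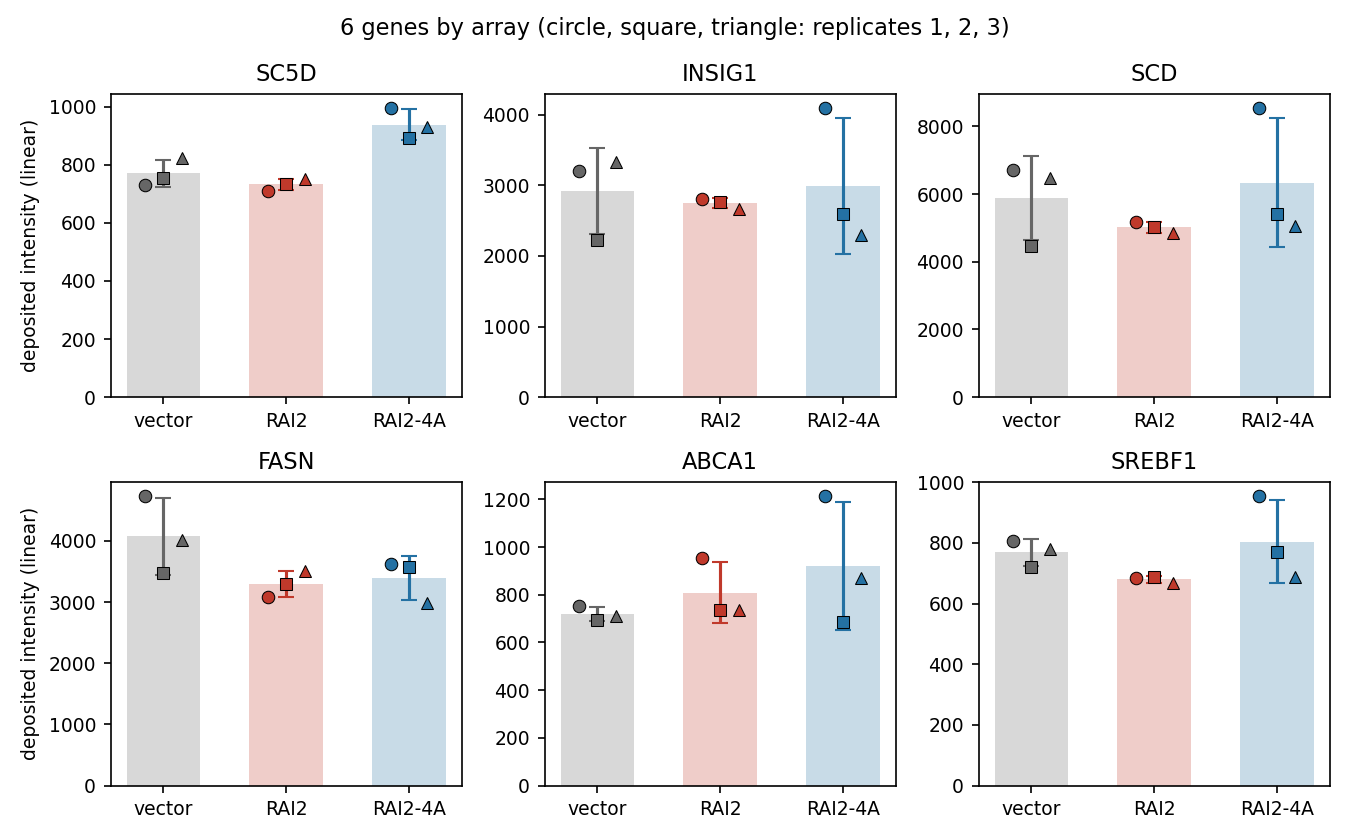
Deposited linear intensity on each array of 6 genes, with bars for group means and whiskers for 1 SD. SC5D is higher in all RAI2-4A arrays than elsewhere, and RAI2-4A replicate 1 is the highest of its group for all 6 genes.

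None of the 8 fatty acid synthesis genes passed in any comparison. In RAI2 cells 7 of them had a negative difference against vector and the median was -0.17, beside 0.02 over all tested genes. The fatty acid synthase FASN read 4724, 3468 and 4021 in vector, 3076, 3299 and 3505 in RAI2 and 3628, 3575 and 2986 in RAI2-4A cells. The groups overlapped through vector replicate 2, and vector replicate 1 was the highest array. The difference was -0.30 in RAI2 (SE 0.13, unadjusted p = 0.0384 in limma, adjusted p = 0.791) and -0.26 in RAI2-4A (SE 0.13, limma, adjusted p = 0.994). Without vector replicate 1 these were -0.18 and -0.14, without RAI2-4A replicate 3 the latter was -0.17, and without the 3 arrays that stood apart the former was -0.19. FADS1, a front-end desaturase of polyunsaturated fatty acids, read 2095, 1740.3 and 1991 in vector, 1749.7, 1743 and 1589 in RAI2 and 1872, 1903 and 1786 in RAI2-4A. Its RAI2 difference was -0.20 (SE 0.11, limma, adjusted p = 0.962), with 2 of 3 RAI2 arrays above vector replicate 2.

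The stearoyl-CoA desaturase SCD, which makes monounsaturated fatty acids, read 6709.6, 4451 and 6480.3 in vector, 5175, 5019 and 4859.6 in RAI2 and 8543, 5408 and 5064 in RAI2-4A cells. RAI2 lay within the vector range, and RAI2-4A replicate 1 exceeded every other array. The difference between the forms was -0.30 (SE 0.19, limma, adjusted p = 1), and -0.06 without RAI2-4A replicate 1. FADS2, the desaturase that acts ahead of FADS1, read 180.2, 96.4 and 122 in vector, 107, 94.3 and 103 in RAI2 and 109, 107 and 97.6 in RAI2-4A, above background on 5 of 9 arrays. Its difference of -0.42 in RAI2 (SE 0.21, limma, adjusted p = 0.894) came with vector replicate 1 as the highest array of all 9.

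The remaining fatty acid genes differed little on their brightest probes. The citrate lyase ACLY, the acetyl-CoA synthetase ACSS2, the carboxylase ACACA and the elongase ELOVL6 had differences against vector of -0.14, 0.15, -0.07 and -0.09 in RAI2 and -0.10, 0.12, 0.06 and -0.07 in RAI2-4A cells (SE 0.10 to 0.11). ACSS2 was the only positive difference among the 8 in RAI2. On a dimmer ACSS2 probe (ILMN_1697510, above background on all 9 arrays) the differences from vector were 0.11 in RAI2 and -0.14 in RAI2-4A. Between the forms that probe differed by 0.25 (SE 0.10, unadjusted p = 0.0257 in limma), which did not pass after adjustment. A further ACSS2 probe (ILMN_2336595) differed by 0.06 between the forms. ACACA, at 1345, 1377 and 1342 in vector against 1339, 1257 and 1290.3 in RAI2, did not overlap between these groups, although the vector arrays exceeded the nearest RAI2 array only slightly. On a dimmer ACACA probe (ILMN_1772123) these groups overlapped, at 979, 1038 and 1184 in vector against 957, 998 and 992 in RAI2.

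Genes of fatty acid activation, oxidation and sterol export did not pass either. The acyl-CoA synthetase ACSL1 read 360.3, 398 and 356 in vector, 424, 447 and 377 in RAI2 and 361, 415 and 348 in RAI2-4A cells, overlapping throughout, with a difference of 0.17 (SE 0.11, limma, adjusted p = 0.988) in RAI2 against vector, 0.11 without RAI2 replicate 2 and 0.09 without the 3 arrays that stood apart. Between the forms it differed by 0.16 (SE 0.11, limma, adjusted p = 1), with 0.10 to 0.24 when single arrays were left out (0.10 without RAI2 replicate 2, 0.11 without RAI2-4A replicate 3, 0.24 without RAI2-4A replicate 2). CPT1A, which admits fatty acids to mitochondria, differed by -0.01 in RAI2 and 0.08 in RAI2-4A (SE 0.10) on its brightest probe. A dimmer CPT1A probe (ILMN_1710052, above background on 7 arrays) read 118, 128 and 131 in vector and 105, 94.8 and 108 in RAI2, a difference of -0.38 (SE 0.12, unadjusted p = 0.011 in limma, adjusted p = 0.687 over separate probes). The third CPT1A probe (ILMN_1687589, above background on 5 arrays) differed the other way, by 0.20 (SE 0.13, limma, adjusted p = 0.993) in RAI2 against vector and by 0.34 (SE 0.13, unadjusted p = 0.0232 in limma, adjusted p = 1) between the forms. The probes of CPT1A therefore disagreed.

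ABCA1, the cholesterol exporter induced by LXR, read 753, 693 and 712 in vector, 956, 736 and 737 in RAI2 and 1212, 685 and 869 in RAI2-4A cells. Replicate 1 of each RAI2 form was the highest of its group, RAI2-4A replicate 3 also lay above all vector arrays, RAI2-4A replicate 2 lay just below them, and the other RAI2 arrays lay in the vector range. The differences were 0.16 (SE 0.18) in RAI2 and 0.33 (SE 0.18, limma, adjusted p = 0.994) in RAI2-4A. The RAI2-4A difference was 0.10 without RAI2-4A replicate 1, 0.53 without RAI2-4A replicate 2 and 0.56 without the 3 arrays that stood apart.

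Across the 33 tested members the median log2 difference was -0.07 in RAI2 and 0.01 in RAI2-4A against vector, beside 0.02 over all tested genes in both. An unadjusted p under 0.05 was reached by 2 members in each comparison: LIPG and FASN in RAI2 (5.9% of all tested genes), LIPG and SC5D in RAI2-4A (4% of all genes), and SC5D and LIPG between the forms (4.82% of all genes). The RAI2 arrays did not overlap vector for 4 of 33 members, LIPG higher and LIPA, SREBF1 and ACACA lower, where 10.1% of all genes did not overlap (6.26% higher, 3.81% lower). For RAI2-4A the 3 such members were LIPG, SC5D and CPT1A, all higher, where 7.99% of all genes did not overlap (4.86% higher, 3.13% lower). Overlap was judged on the brightest probe of each gene. Dimmer probes of SREBF1 and ACACA overlapped vector in RAI2, and those of LIPG and CPT1A did so in RAI2-4A. For CPT1A the RAI2-4A difference was -0.15 on ILMN_1710052 and -0.14 on ILMN_1687589. The comparisons share the vector arrays. Between RAI2 and RAI2-4A, SC5D and FADS1 did not overlap, both lower in RAI2, where 11.3% of all genes did not overlap (5.81% higher, 5.51% lower).

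After adjustment, 0 of 33 members passed between RAI2-4A and vector, where 0.0884% of all genes did (0.0643% higher, 0.0241% lower). Between the RAI2 forms 0 of 33 passed, where 0.378% of all genes did. The latter share rests on 47 genes, and on 98 with the replicate number as a block over RAI2 and RAI2-4A only, which again called none of the 33. Outside LIPG, 26 of the 32 other members had a 95% interval within 0.5 log2 units of 0 in each comparison, and all 32 within 1.

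**Figure D4:**
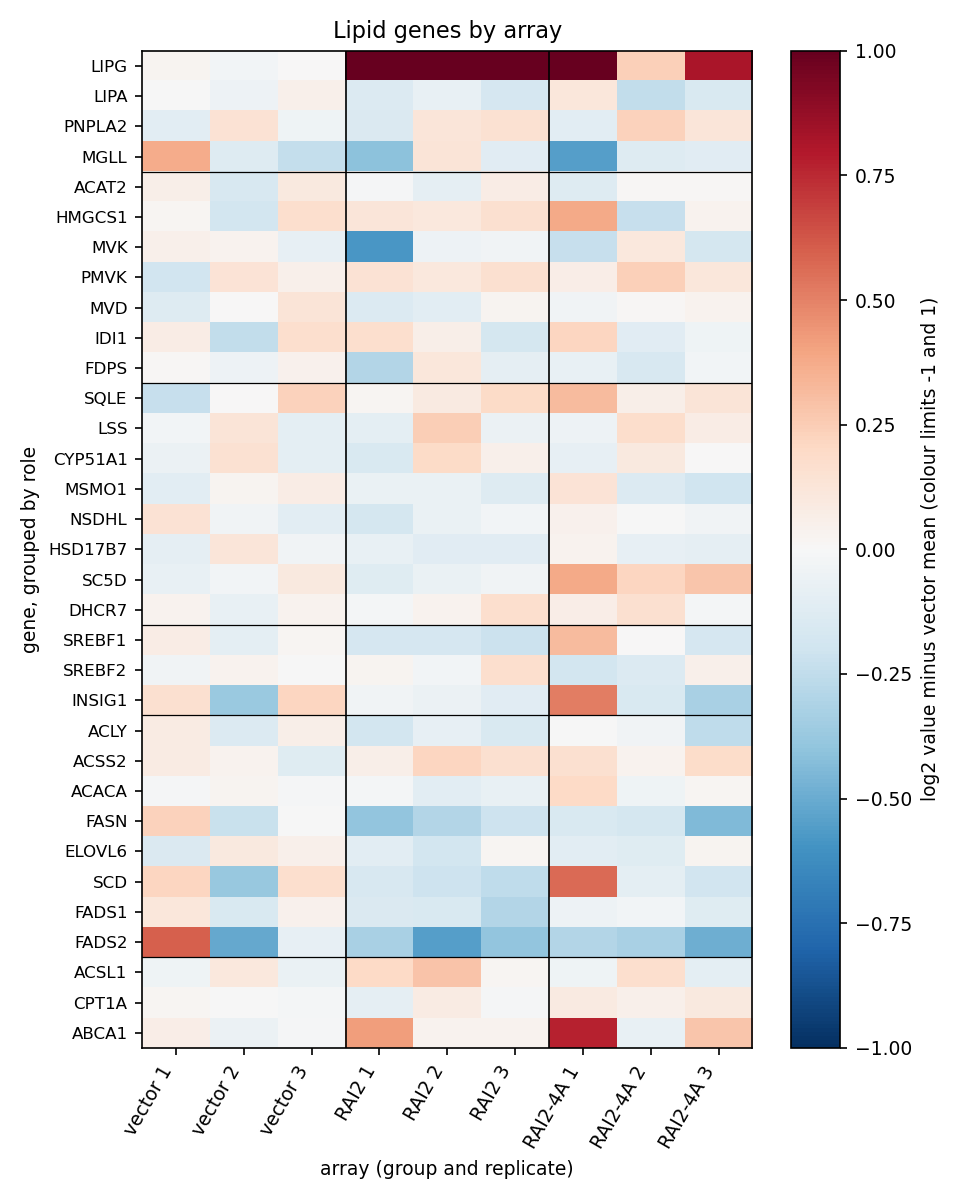
Log2 value of each tested gene on each array minus its vector mean, with colours saturated beyond -1 and 1 and genes grouped by role. LIPG is the row with the strongest colour in the RAI2 arrays, while INSIG1, SCD and ABCA1 are highest in RAI2-4A replicate 1.

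Members also differed between arrays of the same group. RAI2-4A replicate 1 was the highest of its 3 arrays for 17 of the 33 members, beside 37.2% of all tested genes, namely LIPG, LIPA, HMGCS1, IDI1, SQLE, MSMO1, NSDHL, HSD17B7, SC5D, SREBF1, INSIG1, ACLY, ACACA, FASN, SCD, FADS2 and ABCA1. In vector, replicate 2 was the lowest of 3 for 15 members, beside 22.9% of all genes, namely LIPG, LIPA, ACAT2, HMGCS1, IDI1, FDPS, DHCR7, SREBF1, INSIG1, ACLY, FASN, SCD, FADS1, FADS2 and ABCA1. RAI2-4A replicate 1 was the lowest of 3 for 9 members (PNPLA2, MGLL, ACAT2, MVK, PMVK, MVD, LSS, CYP51A1 and SREBF2), and vector replicate 2 was the highest of 3 for 9 (PNPLA2, PMVK, LSS, CYP51A1, HSD17B7, SREBF2, ACACA, ELOVL6 and ACSL1).

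Vector replicate 1 was high on particular probes. It read 343 on an MGLL probe (ILMN_1738589) against 104 and 88.4 on the other vector arrays, 331 on an MSMO1 probe (ILMN_1689842) against 104 and 94.6, and 3015 on an ACLY probe (ILMN_1749014) against 848 and 1306. The brighter probes of MSMO1 and ACLY, at 1606, 1764 and 1822 and at 4093, 3508 and 4012, did not show such a gap. Probes of one gene therefore disagreed on this array, and the values above rest on the brighter ones.

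A wider list of 56 genes of the same pathways gave no call either. It held further genes of sterol synthesis and sensing, lipoprotein handling, lipid storage, elongation, oxidation and nuclear receptor genes. Of these, 49 had a probe and 44 were tested, and 0 passed in each of the 3 comparisons. Over all tested genes 0.418% passed in RAI2 against vector, 0.0884% in RAI2-4A against vector and 0.378% between the forms. At such shares 0 of 44 says little about the list. With unadjusted p under 0.05 in limma there were 2 in RAI2 against vector, 0 in RAI2-4A against vector and 1 between the forms. The shares of all tested genes were 5.9%, 4% and 4.82%. The medians were -0.0042 in RAI2 against vector, 0.05 in RAI2-4A against vector and -0.02 between the forms.

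The lowest p-values in RAI2 against vector belonged to PPARG, the lipid-sensing nuclear receptor, at 1981 ± 127 (SD, n = 3) in vector and 1630.2 ± 57.6 (SD, n = 3) in RAI2, a log2 difference of -0.28 (SE 0.11, limma, adjusted p = 0.708). The elongase ELOVL7 differed by 0.26 (SE 0.11, limma, adjusted p = 0.769) and HADHB, a subunit of the mitochondrial trifunctional protein, by 0.27 (SE 0.13, limma, adjusted p = 0.877). In RAI2-4A the secreted lipase inhibitor ANGPTL4 differed by -0.35 (SE 0.17), HADHB by 0.27 (SE 0.13) and the mitochondrial carboxylase ACACB by 0.23 (SE 0.11), each with an adjusted p of 0.994 in limma. Between the forms, the carnitine palmitoyltransferase CPT2 differed by -0.30 (SE 0.13, limma, adjusted p = 0.977), the LDL receptor ubiquitin ligase MYLIP by -0.25 (SE 0.13) and malic enzyme ME1 by 0.26 (SE 0.14), the latter pair with an adjusted p of 1 in limma.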

How the data were processed

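Single-colour Illumina bead arrays measured RNA of 9 samples, 3 each of vector, RAI2 and RAI2-4A, grouped by sample title. The value table deposited by the authors holds intensity on a linear scale, with array medians of 98.5 to 99.5, so it was taken as already normalized; how is not given in the sources used here. BeadStudio and limma are named per the submitters' processing notes. A further 18 columns could not be tied to a sample by their names and stayed unused, so neither raw signals nor detection p-values entered.

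Probes lacking a value, 3 in all, were dropped. Each array's background was removed with normexp in limma (saddle method, offset of 50), and log2 was taken. A probe counted as above background when its log2 intensity exceeded the array's mode by 1.645 SD, the SD being taken below the mode (bandwidth 0.03). The 22399 probes that did so on 3 or more of the 9 arrays were kept, the brightest standing for each gene. Of the array's probes, 30111 carry 1 symbol in the annotation, and 17209 carry none or several. Through Entrez IDs 30072 were found in RefSeq's GRCh38.p14 table, which changed 0 symbols.

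R 4.3.3 with limma 3.58.1 fitted one linear model to all 9 arrays (lmFit, then contrasts.fit and eBayes; 6 residual degrees of freedom) and tested 3 contrasts, each two-sided, with Benjamini-Hochberg adjustment over 12437 genes at 0.05. On simulated data for RAI2 against vector over 12437 genes 40% of genes shifted by 0.5 log2 units were recovered and 92% of those shifted by 1, with 6.38% of calls false. The simulated noise was independent between genes and arrays. Real residuals shared an axis that held 53.4% of their variance, so these rates may not hold for the real arrays. Values in every array were given for LIPG, any member past the threshold and, per contrast, the 6 members with the lowest unadjusted p among those above background on all arrays of a group. Other members whose arrays are listed, such as LIPA, HMGCS1, FADS2 and ACACA, were picked after their values were seen. For the wider list the 3 lowest per contrast are named. Members, lists and settings were chosen with earlier results of these data known.

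Residuals of RAI2 and RAI2-4A arrays with the same number correlated at 0.44, 0.44 and 0.23. The labels give no pairing, and arrays of these groups with unlike numbers were not compared, so pairing by number was not tested. Vector arrays correlated at -0.25, -0.29 and 0.20 with the RAI2 arrays of the same number. High correlation also occurred between unlike numbers: vector replicate 1 reached 0.48 with RAI2 replicate 2 and 0.54 with RAI2-4A replicate 2. Other settings tried were for background, scaling, the filter, the choice of probe, variance, the groups fitted, the replicate block and left-out arrays. The block over RAI2 and RAI2-4A only was added after seeing the data.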

Additional observations from a re-analysis of the deposited data

Results flagged for a closer look

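SC5D lay on opposite sides of vector under the RAI2 forms: all 3 RAI2 arrays lay below the vector mean and all 3 RAI2-4A arrays above it. The log2 differences from vector were -0.07 and 0.29. The difference between the forms, -0.37, was tested in the limma fit and did not pass (adjusted p = 0.292, RAI2 lower in 3 of 3 arrays). This was 1 of 33 members, 3.03%, where 325 of 12437 tested genes, 2.61%, showed the same pattern.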

How the results depend on the processing

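Besides LIPG, 15 differences were refitted, those of the 6 genes with the lowest p in each comparison: all 15 kept their direction and their side of the threshold in 319 refits. Differences of other genes in the text were not refitted. For RAI2 against vector, the call of LIPG was lost with the mean of its probes (0.81, limma, adjusted p = 0.0665), when no member passed (0), and leaving out single arrays gave differences of 1.12 to 1.19 and 0 to 1 members called, with 0 without RAI2 replicate 1 or 2. The count over all genes, 52, was 33 with the mean of probes, 28 with every probe on its own and 21 to 56 with single arrays left out (21 without RAI2 replicate 1 or 2, 26 without RAI2 replicate 3, 27 without vector replicate 3). Across all other settings tried, that count ran from 21 to 72. For RAI2-4A against vector, leaving out the 3 arrays that stood apart gave 0.96 for LIPG, 1 member called and 17 genes. Single arrays left out gave 0.53 to 0.95, 0 to 1 members and 5 to 11 genes (5 without vector replicate 3, 6 without RAI2-4A replicate 1, 7 without vector replicate 2), against 11 in the fit reported. The count was 17 with trend and robust variances, and 7 with probes above background on all arrays, 6 with every probe on its own and 7 with only the groups compared. Between the forms 47 genes passed, and 29 with every probe on its own, 98 with the replicate block over these groups only, and 30 to 77 with single arrays left out (30 without RAI2 replicate 1, 31 without RAI2 replicate 3, 77 without vector replicate 1). The cause of these shifts was not tested.

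With the replicate block over all 9 arrays LIPG differed by 1.15 in RAI2 (limma, adjusted p = 0.0160) and 0.71 in RAI2-4A (limma, adjusted p = 0.397), and the block changed no call of a member. SREBF2 has no value where probes had to exceed background everywhere. A slide block was not run, since the sources used here name no slide. Signals near background (LIPG in vector, SREBF2, FADS2, LPL) limit the folds of these genes.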
